A study of Danio rerio with 6 samples.

Results

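Genes of red blood cells and of white blood cells were read across 6 libraries of cells sorted from the heads of larval zebrafish. They were chosen by name, from a pattern of gene symbols that covers haemoglobins, red cell enzymes, red cell membrane proteins and red cell regulators, and separately neutrophil, macrophage and lymphocyte genes. The pattern matched 62 symbols, of which 53 had a row in the count files: 27 red cell genes and 26 leukocyte genes, out of 32469 genes. The 9 others (hbaa1, csf1ra, il1b, lck, mmp13b, sptbn5, EPB41 and the symbols sptbn1 and SPTBN1) were not analysed here, and no symbol matched mpx, il8, klfd or slc4a1a itself. The pattern also took in relatives that work in many cell types: 11 of the red cell names are band 4.1-like proteins, non-erythroid spectrins or slc4a1ap, and 1 leukocyte name is RUNX1T1. They are kept apart below as wider names, which leaves 16 core red cell and 25 core leukocyte genes.

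All animals in either group carried the transgenes OMP-Gal4 and UAS-GCaMP1.6, in which the promoter of the olfactory marker protein gene drives Gal4 and so a green calcium sensor in mature olfactory neurons. Embryos were raised at 28 °C. Treatment began at 16 to 20 hours post fertilization. Embryos were then kept in 100 µM gallein, a small molecule inhibitor of G protein beta-gamma signalling, or in the solvent DMSO, and the medium was renewed every 24 hours. Heads were taken at 5 days, dissociated with trypsin and collagenase, and green cells were collected. Each group held 3 biological replicates. How many larvae went into a replicate is not given in the sources used here. Gene counts per sample ran from 30822664 to 40295728. Levels are given as CPM, counts per 1000000 after scaling by TMM (a factor per library that offsets differences in RNA composition), and fold changes and adjusted p-values are those of edgeR's quasi-likelihood test over all 18271 genes with enough counts.

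In fish, red blood cells keep their nucleus and go on making RNA, and at larval stages they use embryonic alpha and beta globins. The transcription factor Gata1 drives their formation, Alas2 carries out the opening step of haem synthesis in them, and the membrane is held by a lattice of spectrin and band 4.1. Neutrophils and macrophages patrol the larval head at this age, and lymphocytes are forming in the thymus. None of these cells is an olfactory neuron, and a sort for the green sensor is meant to leave them out.

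Levels are listed below in the order of replicates 1, 2 and 3. In controls the sorted-cell marker OMP stood at 13.4, 6.97 and 7.81 CPM, and in gallein it stood at 4.79, 0.193 and 4.99 CPM. Another olfactory neuron marker, gnal, was at 8.36, 7.51 and 22.0 CPM in controls and 7.42, 2.46 and 7.84 CPM in gallein. The 6 genes of that marker list, OMP and gnal among them, summed to 240, 136 and 2213 CPM in controls and 223, 155 and 120 CPM in gallein. By that sum control replicate 3 stood apart, and gallein replicate 2 did not. In control replicate 3 OMP and gnal gave only 7.81 and 22.0 of the 2213 CPM, so other genes of the list set the sum. Both OMP and gnal were lowest in gallein replicate 2, where 1 of the 6 genes had no count. Gallein replicate 2 held only 4 OMP counts, and it also stood apart in the genes of the mitochondrial genome, which took 8.86% of its gene counts against 31.7% to 40.5% elsewhere. Its alignments that were not unique made up 22.3% of all its counts, against 9.54% to 16.1% in the other libraries. Fold changes that rest on this library are given with and without it. In bulk RNA, fewer cells of a type and less RNA per cell cannot be told apart.

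No member passed the threshold. Of the 22 red cell genes with enough counts for the test, 0 were called higher and 0 lower in gallein, and of the 17 leukocyte genes likewise 0 and 0. Over all 18271 genes edgeR also called 0% higher and 0% lower, while 1187 genes (6.50%) had an unadjusted p under 0.05. Among the members that was so for hbae1.1 and SPTBN4 in the red cell class and for 0 leukocyte genes. The DESeq2 Wald test called 0.296% of genes higher and 0.213% lower, but 0 of the 39 members tested, with a smallest adjusted p of 0.126 among those given one. All gallein samples lay below all controls in 5.22% of genes tested and above them in 3.81%. Among the 39 tested members that was so for 1 gene, which lay below. With spike-in totals as size factors 19 of the 39 tested members turned the sign of their fold change.

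What the members showed was a difference between single libraries. Summed haemoglobin transcripts were 10.3-fold higher in gallein replicate 2 than in any other sample. Transcripts of the protease MMP9 and of the haem enzyme alas2 were high in gallein replicates 1 and 2 and low in replicate 3. Of the 3 genes named MPEG1, a macrophage marker, each was highest in a different gallein sample.

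**Figure D1:**
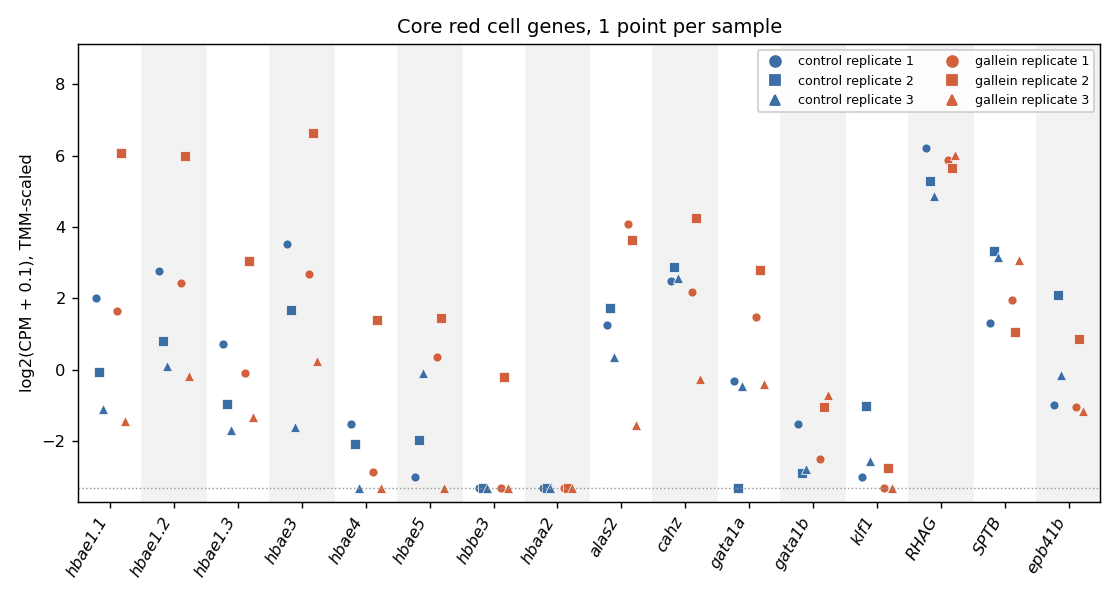
Level of each of the 16 core red cell genes in every sample, as log2(CPM + 0.1) with TMM scaling; blue marks are controls, orange marks gallein, the mark's shape gives the replicate, and the dotted line is a count of 0. The square of gallein replicate 2 is the highest point of all 7 haemoglobin genes that had any count, while RHAG lies between 29.4 and 73.8 CPM in all 6 samples.

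The haemoglobin genes with a row were hbae1.1, hbae1.2, hbae1.3, hbae3, hbae4, hbae5 and hbaa2, which encode alpha-type chains, and hbbe3, a beta-type chain. The other beta globins, such as hbbe1.1 and hbba1, had no symbol in the table used and were not analysed here, so every haemoglobin sum and share covers alpha chains almost alone. In the RefSeq gene order of the later assembly GRCz12tu, the 3 hbae1 copies and hbae3 stand in a row, separated only by beta globin genes, in the cluster that also holds hbaa2. hbae4, hbbe3 and hbae5 stand in another cluster on a different chromosome. Coordinates are not given, because that assembly is not the one the counts were made on. The hbae1 copies are close in sequence, so how the reads were split among them is uncertain, and reads that fit several copies may be missing.

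In controls hbae1.1 had 155, 50 and 16 counts (3.90, 0.856 and 0.369 CPM), and in gallein 80, 1394 and 10 counts (3.04, 67.2 and 0.271 CPM). Gallein replicate 2 alone was high, and the other gallein samples lay within or below the range of the controls. The log2 fold change was 3.78 ± 1.65 (SE, n = 3 per group, edgeR adjusted p = 0.761), and without that library it was -0.05. For hbae1.2 the levels were 6.65, 1.64 and 0.968 CPM in controls and 5.25, 63.7 and 0.787 CPM in gallein. Its log2 fold change was 2.91 ± 1.39 (SE, edgeR adjusted p = 0.779), and -0.03 without gallein replicate 2. The pattern of hbae1.2 was thus that of hbae1.1, sample by sample.

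For hbae3 the levels were 11.4, 3.10 and 0.231 CPM in controls and 6.28, 98.9 and 1.09 CPM in gallein. The groups overlapped, with control replicate 1 above gallein replicates 1 and 3. The log2 fold change of hbae3 was 2.85 ± 1.58 (SE, edgeR adjusted p = 0.784), and -0.41 without gallein replicate 2. hbae1.3 ran from 0.207 to 1.54 CPM in controls and stood at 0.837, 8.09 and 0.299 CPM in gallein. Its log2 fold change was 2.09, or -0.34 without that library. The remaining genes were scarce. hbae4 had 10, 8 and 0 counts in controls and 1, 52 and 0 in gallein.

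hbae5 had 1, 9 and 36 counts in controls and 31, 55 and 0 in gallein. Here control replicate 3, the lowest control for every other haemoglobin gene counted in controls, was the highest control. hbbe3 was counted in gallein replicate 2 alone, with 16 reads. hbaa2, of the adult type, had 0 counts in all 6 samples, which allows levels of up to 0.0212 CPM (controls) and 0.0358 CPM (gallein; 3 counts over a group, counting error only).

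Summed over the 8 genes, haemoglobin counts were 943, 368 and 113 in controls and 437, 5062 and 90 in gallein. On the CPM scale the sum was 23.8, 6.30 and 2.60 in controls and 16.6, 243.9 and 2.44 in gallein. Gallein replicate 2 was thus 10.3-fold above the next library, control replicate 1, and the other gallein libraries lay within or just below the range of the controls. The log2 difference between groups was 1.56 with gallein replicate 2 and -0.20 without it, and -0.23 with spike-in totals as size factors, against SDs of the log2 sums of 1.61 in controls and 3.34 in gallein. Set against the spike-in RNA of each library, there were 0.522, 0.398 and 0.0749 haemoglobin counts per 1000 spike-in counts in controls and 0.129, 1.54 and 0.0484 in gallein. By that measure gallein replicate 2 was 2.94-fold above control replicate 1, so it was the highest library by either scale, though by a smaller factor.

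**Figure D2:**
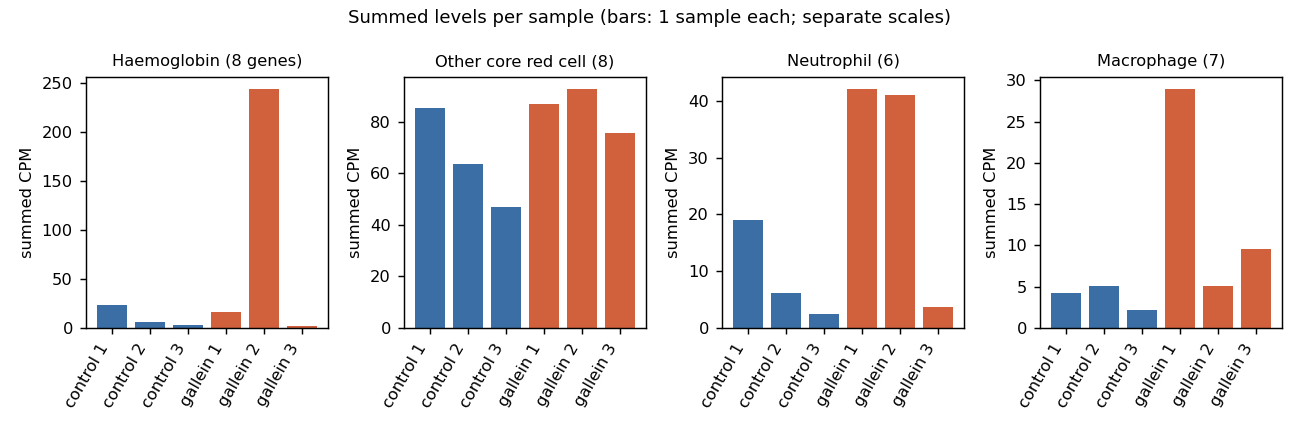
Summed TMM-scaled CPM per sample of 4 gene groups: the haemoglobins, the other core red cell genes, the neutrophil genes and the macrophage genes (1 bar per sample, blue control, orange gallein, each panel with its own scale from 0). Haemoglobin is at 243.9 CPM in gallein replicate 2 and between 2.44 and 23.8 CPM elsewhere, the neutrophil sum is high in gallein replicates 1 and 2, and the macrophage sum in gallein replicate 1. In those high bars MMP9 makes up most of the neutrophil sum, and MPEG1 (ENSDARG00000043093) most of the macrophage sum. RHAG makes up most of the sum of the other core red cell genes in every sample.

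Haemoglobin counts were also divided by gene within each library. hbae3 made up 47.9% of them in control replicate 1 (95% Wilson interval 44.8 to 51.1), 49.2% in control replicate 2 (44.1 to 54.3), 37.8% in gallein replicate 1 (33.3 to 42.4), 40.6% in gallein replicate 2 (39.2 to 41.9) and 44.4% in gallein replicate 3 (34.6 to 54.7). Control replicate 3 departed from this, with 8.85% (4.88 to 15.5) from hbae3 and 31.9% (24.0 to 40.9) from hbae5. The share of hbae1.1 was 27.5% in gallein replicate 2 (26.3 to 28.8) and between 11.1% and 18.3% in the other libraries, while that of hbae1.2 was 26.1% there (24.9 to 27.4) and between 26.1% and 37.2% elsewhere. These intervals cover counting error only, and reads of a library are not independent molecules.

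The other core red cell genes did not all follow haemoglobin. Closest was SLC4A1 (ENSDARG00000012881), the anion exchanger of the red cell membrane known as band 3, which the name pattern did not take but which had been listed as a marker. It was at 14.6, 4.26 and 0.254 CPM in controls and 11.8, 43.0 and 0.896 CPM in gallein, the same order of samples as for hbae3. The other gene named SLC4A1 (ENSDARG00000024560) was at 3.85 to 4.54 CPM in controls and at 16.1, 4.24 and 1.74 CPM in gallein, and was not high in gallein replicate 2. cahz, a red cell carbonic anhydrase of zebrafish, was at 5.54, 7.19 and 5.79 CPM in controls and 4.45, 18.8 and 0.733 CPM in gallein. Its control values lay close together, and gallein held both the highest and the lowest sample. The log2 fold change of cahz was 0.37 ± 1.01 (SE, edgeR adjusted p = 0.969), and -1.25 without gallein replicate 2.

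alas2 was high in both gallein replicates 1 and 2, at 16.9 and 12.3 CPM, and lowest of all in replicate 3, at 0.244 CPM. The controls held 2.27, 3.24 and 1.18 CPM. For alas2 the log2 fold change was 2.14 ± 1.2 (SE, edgeR adjusted p = 0.784), with a range of 1.49 to 2.71 when each library was left out in turn, but -0.42 with spike-in totals. gata1a had 28, 0 and 27 counts in controls and 71, 141 and 24 in gallein, so the highest samples were again gallein replicates 1 and 2. Its log2 fold change was 2.93 ± 1.55 (SE, edgeR adjusted p = 0.779), the largest of the non-haemoglobin core genes, from counts that were few in every library. There were 10.5, 1.95 and 2.22 haemoglobin counts per alas2 count in controls and 0.984, 19.8 and 10 in gallein, which shows that alas2 and haemoglobin did not move in a fixed ratio.

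RHAG, the gene of the Rh-associated glycoprotein of the red cell membrane, behaved otherwise. It was at 73.8, 38.8 and 29.4 CPM in controls and 58.4, 50.5 and 64.6 CPM in gallein (log2 fold change 0.29 ± 0.70 SE, edgeR adjusted p = 0.966). Per RHAG count there were 0.322, 0.162 and 0.0887 haemoglobin counts in controls and 0.285, 4.83 and 0.0378 in gallein. That ratio within a library does not depend on scaling, and gallein replicate 2 stood above the other 5 by it as well. SPTB, the beta spectrin of red cells, was at 2.37, 9.91 and 8.83 CPM in controls and 3.80, 1.98 and 8.39 CPM in gallein, lowest where haemoglobin was highest. epb41b, a band 4.1 gene, reached 4.14 CPM in control replicate 2 and 1.73 CPM in gallein replicate 2 and was between 0.353 and 0.807 CPM elsewhere. gata1b had 2 to 19 counts a sample. klf1, a red cell transcription factor gene, had 23 counts in control replicate 2 and 0 to 3 in the others.

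Over the 11 core red cell genes tested, 9 had a positive log2 fold change and the median was 2.09, against a median of 0.07 over all genes tested. The haemoglobin genes weighed heavily in this: all 5 that were tested were positive, with a median of 2.85. The 6 other core genes tested were 4 positive and 2 negative, with a median of 0.33. Without gallein replicate 2 the median of all 11 core genes was -0.05 and 4 of the 11 were positive. With no filter on counts, 15 core genes could be fitted and 12 were positive. Scaling by spike-in totals moved the median of all genes to -1.67, and scaling by library size alone moved it to -0.49. Relative to the median of all genes, the core red cell median was 2.02 with TMM, 1.28 with spike-in totals and 1.71 with library size, but with spike-in totals only 4 of the 11 values were above 0. Gallein replicate 2 was the highest library for 9 of the 15 core red cell genes with any count (60%), and for 22.3% of all genes tested. These counts describe the samples, and members of 1 gene cluster are not independent of each other.

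Among the wider red cell names the levels were higher and the pattern was mixed. SPTAN1, the alpha spectrin of non-erythroid cells, was at 307, 179 and 257 CPM in controls and 219, 935 and 373 CPM in gallein. EPB41L5, a band 4.1 relative of epithelia, stood at 304 CPM in control replicate 1 and at 24.6 to 71.3 CPM in the other libraries. The smallest p of all members belonged to SPTBN4, a spectrin of axons, at 0.201, 0.993 and 2.14 CPM in controls and 3.31, 0.626 and 45.6 CPM in gallein. It had a log2 fold change estimated at 3.89 ± 1.48 SE (edgeR adjusted p = 0.756). That value rested on gallein replicate 3, without which it was 0.82. In that library ELAVL3, a pan-neuronal gene, was also highest, at 250.2 CPM against 12.3 to 133.7 CPM elsewhere, and its part in the result was not tested.

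The other gene of that name, sptbn4a, was high in gallein replicate 1 instead, at 50.5 CPM, with 12.5 and 0.516 CPM in replicates 2 and 3 and 1.25 to 5.14 CPM in controls. epb41l3b was at 8.35 to 11.9 CPM in controls and at 23.8, 34.3 and 8.17 CPM in gallein. EPB41L2 and EPB41L3 were highest in gallein replicate 2, at 74.6 and 19.5 CPM, with control levels of 18.6 to 44.5 and 6.83 to 10.9 CPM. EPB41L4A, EPB41L4B and slc4a1ap had log2 fold changes of 0.03, -0.40 and 0.17, and the samples of either group overlapped in each.

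The leukocyte genes were scarce. Of the 25 core genes, 1 to 6 per library had no count at all, and 9 did not reach the test. At an equal depth of 30822664 gene counts, 20, 23 and 14 core genes were detected (at least 5 counts) in controls and 17, 18 and 17 in gallein. With nuclear genes alone thinned to 19445915 counts, a check added after seeing the data, the numbers were 19, 23 and 14 in controls and 17, 18 and 17 in gallein. The highest sample was gallein replicate 1 for 7 of the 25, gallein replicate 2 for 7, control replicate 1 for 5, control replicate 2 for 4 and gallein replicate 3 for 2.

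**Figure D3:**
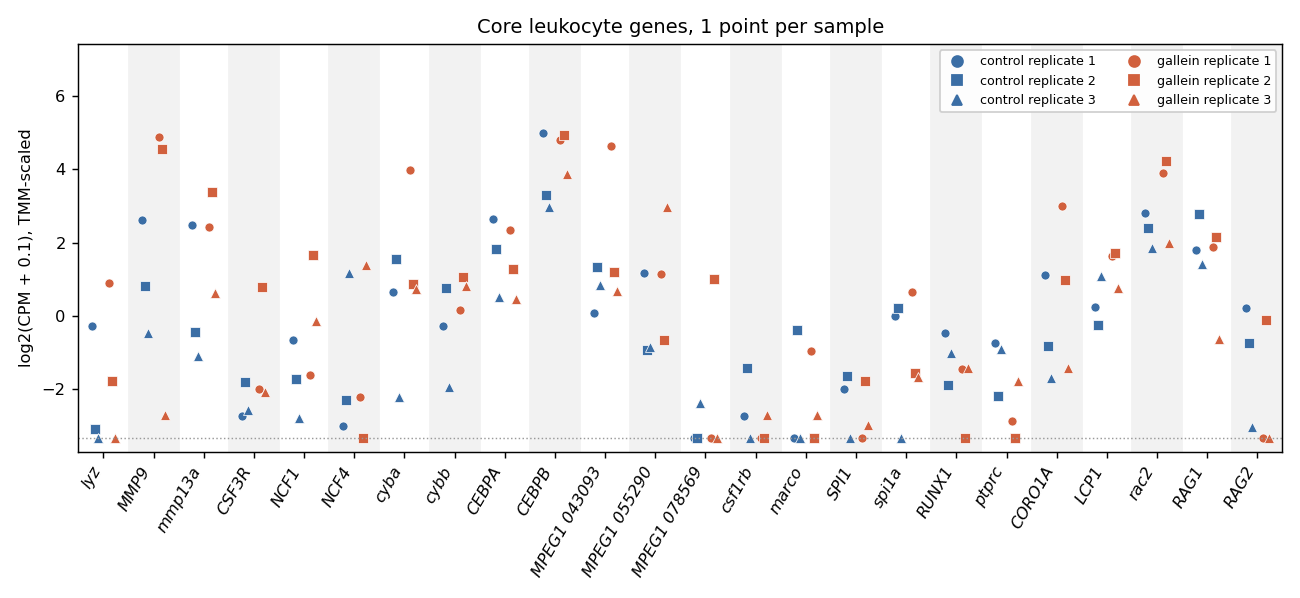
Level of 24 of the 25 core leukocyte genes in every sample, as log2(CPM + 0.1) with TMM scaling, with marks as for the red cell genes; the 3 MPEG1 genes carry the end of their identifiers. MMP9 is high in gallein replicates 1 and 2 and lowest in gallein replicate 3, and many genes that define white blood cells, such as lyz, csf1rb, marco and ptprc, have samples on the dotted line of 0 counts.

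Neutrophils are known for granule enzymes, for matrix proteases and for the NADPH oxidase that makes oxygen radicals. MMP9, a gelatinase of neutrophils that injured epithelium also makes, was at 6.02, 1.66 and 0.622 CPM in controls and 29.6, 23.6 and 0.0543 CPM in gallein. Gallein held the highest and the lowest samples, from 779 counts in replicate 1 to 2 counts in replicate 3. The log2 fold change of MMP9 was 2.68 ± 1.49 (SE, edgeR adjusted p = 0.784), and with each library left out in turn it ran from 2.09 to 3.99. With spike-in totals it was 0.58 and with voom 0.59. mmp13a, a collagenase, was at 5.52, 0.633 and 0.369 CPM in controls and 5.33, 10.3 and 1.44 CPM in gallein. lyz, the lysozyme of granules and the gene most used to mark these cells in larvae, had 29, 1 and 0 counts in controls and 46, 4 and 0 in gallein.

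The lyz counts were highest in control replicate 1 and gallein replicate 1, whereas MMP9 was nearly as high in gallein replicate 2, where lyz held only 4 counts. CSF3R, the receptor for the neutrophil growth factor, had 2, 11 and 3 counts in controls and 4, 34 and 5 in gallein. npsn, a neutrophil protease gene listed beside the members, was at 1.11, 1.90 and 0.0231 CPM in controls and 3.20, 27.5 and 0.0271 CPM in gallein, highest in the library with most haemoglobin (log2 fold change 3.33 ± 1.80 SE, edgeR adjusted p = 0.779, and 0.67 without that library).

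Subunits of the NADPH oxidase were high in different libraries. cyba, a membrane subunit, was at 1.46, 2.84 and 0.115 CPM in controls and 15.8, 1.73 and 1.57 CPM in gallein. Its partner cybb was at 0.730, 1.59 and 0.161 CPM in controls and 1.03, 1.98 and 1.66 CPM in gallein, so the step of cyba in gallein replicate 1 was not seen in it. Of the cytosolic subunits, NCF1 had 21, 12 and 2 counts in controls and 6, 64 and 30 in gallein. NCF4 was counted almost only in control replicate 3 and gallein replicate 3, with 93 reads in each. The log2 fold changes of cyba, cybb and NCF1 were 2.1, 0.90 and 2.39, with edgeR adjusted p-values of 0.797, 0.923 and 0.792. Single libraries set the first and the last: cyba was 0.17 without gallein replicate 1, and NCF1 was 1.01 without gallein replicate 2.

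Macrophages are marked in zebrafish by mpeg1, which encodes a pore-forming protein, and by the receptor Csf1r. MPEG1 (ENSDARG00000043093) was at 0.957, 2.45 and 1.68 CPM in controls and 24.9, 2.22 and 1.49 CPM in gallein. Gallein replicate 1 alone was high. Its log2 fold change was 2.49 ± 1.15 (SE, edgeR adjusted p = 0.774), and 0.13 without that library or 0.088 with spike-in totals. MPEG1 (ENSDARG00000055290) was at 2.14, 0.428 and 0.461 CPM in controls and 2.13, 0.530 and 7.76 CPM in gallein, high in replicate 3. Its log2 fold change was 1.79, or 0.40 without gallein replicate 3.

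MPEG1 (ENSDARG00000078569) was nearly confined to gallein replicate 2, with 40 counts there, 4 in control replicate 3 and 0 in the other 4 libraries. Each of the 3 genes was thus highest in a different gallein sample, and since they share a name and are alike, how reads were split among them is uncertain. csf1rb had 2, 16 and 0 counts in controls and 0, 0 and 2 in gallein. marco, a scavenger receptor gene, had 39 counts in control replicate 2, 11 in gallein replicate 1 and 0 to 2 elsewhere. SPI1 and spi1a, genes of the factor PU.1 type that sets myeloid fate, had at most 13 and 62 counts in a sample, and control replicate 3 held 0 of either. RUNX1, which blood stem cells need, had 25, 10 and 17 counts in controls and 7, 0 and 10 in gallein.

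Summed over the 6 neutrophil genes (lyz, MMP9, mmp13a, CSF3R, NCF1 and CEBPA), levels were 19.0, 6.18 and 2.44 CPM in controls and 42.1, 41.1 and 3.72 CPM in gallein. The 7 macrophage genes (the MPEG1 genes, csf1rb, marco, SPI1 and spi1a) summed to 4.21, 5.10 and 2.24 CPM in controls and 29.0, 5.11 and 9.61 CPM in gallein. MMP9 alone gave 29.6 and 23.6 CPM of the neutrophil sums in gallein replicates 1 and 2. MPEG1 (ENSDARG00000043093) alone gave 24.9 CPM of the macrophage sum in gallein replicate 1. Gallein replicate 3 lay among the controls for the neutrophil genes. For the macrophage genes all gallein samples lay above all controls, gallein replicate 2 only just above control replicate 2, but per 1000 spike-in counts the sums overlapped, at 0.0925, 0.322 and 0.0643 in controls and 0.225, 0.0321 and 0.190 in gallein. The log2 difference of both sums together was 1.72, and -0.07 with spike-in totals as size factors, so its sign depended on the scaling.

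The remaining leukocyte members are used more widely. CEBPB, a factor of inflammation in many tissues, was at 32.0, 9.81 and 7.77 CPM in controls and 27.8, 30.4 and 14.4 CPM in gallein. CEBPA was at 6.15, 3.47 and 1.34 CPM in controls and 4.98, 2.31 and 1.28 CPM in gallein. rac2, a small GTPase of blood cells that neutrophils need for movement, was at 6.90, 5.22 and 3.55 CPM in controls and 14.7, 18.5 and 3.88 CPM in gallein. Its log2 fold change was 1.24 ± 0.79 (SE, edgeR adjusted p = 0.799), with a range of 0.83 to 1.67 when each library was left out in turn, but -0.92 with spike-in totals.

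CORO1A and LCP1, actin-binding proteins of leukocytes, were at 0.207 to 2.07 and 0.736 to 2.03 CPM in controls and at 0.271 to 7.95 and 1.60 to 3.18 CPM in gallein. ptprc, the pan-leukocyte phosphatase CD45, had 20, 7 and 19 counts in controls and 1, 0 and 7 in gallein, so the 2 gallein libraries with most MMP9 held 1 and 0 of its counts. RUNX1T1, a wider name, was at 28.6 to 50.7 CPM in controls and at 29.2, 51.5 and 144.0 CPM in gallein.

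RAG1 and RAG2 encode the recombinase of developing lymphocytes and are neighbours in the RefSeq order. In zebrafish, activity of rag1 has also been described in olfactory sensory neurons. RAG1 was at 3.35, 6.73 and 2.58 CPM in controls and 3.58, 4.38 and 0.543 CPM in gallein (log2 fold change -0.58 ± 0.97 SE, edgeR adjusted p = 0.947). RAG2 had 42, 29 and 1 counts in controls and 0, 17 and 0 in gallein. The other listed lymphocyte markers differed from each other. ighm, the antibody heavy chain, had a count in 1 library only, and cd79a, of the B cell receptor, was at 0 to 0.325 CPM. CCR9, a receptor of cells that home to the thymus, was at 0.504, 9.84 and 0 CPM in controls and at 2.89, 2.55 and 1.44 CPM in gallein. cd8a, of killer T cells, had 62 counts in control replicate 2, 240 in gallein replicate 2 and 0 in the other 4 libraries. It was taken from the longer lymphocyte list, outside the naming rule. In that same list cd8b and ZAP70 had 0 counts in all 6 libraries. RAG1 was counted in every library.

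**Figure D4:**
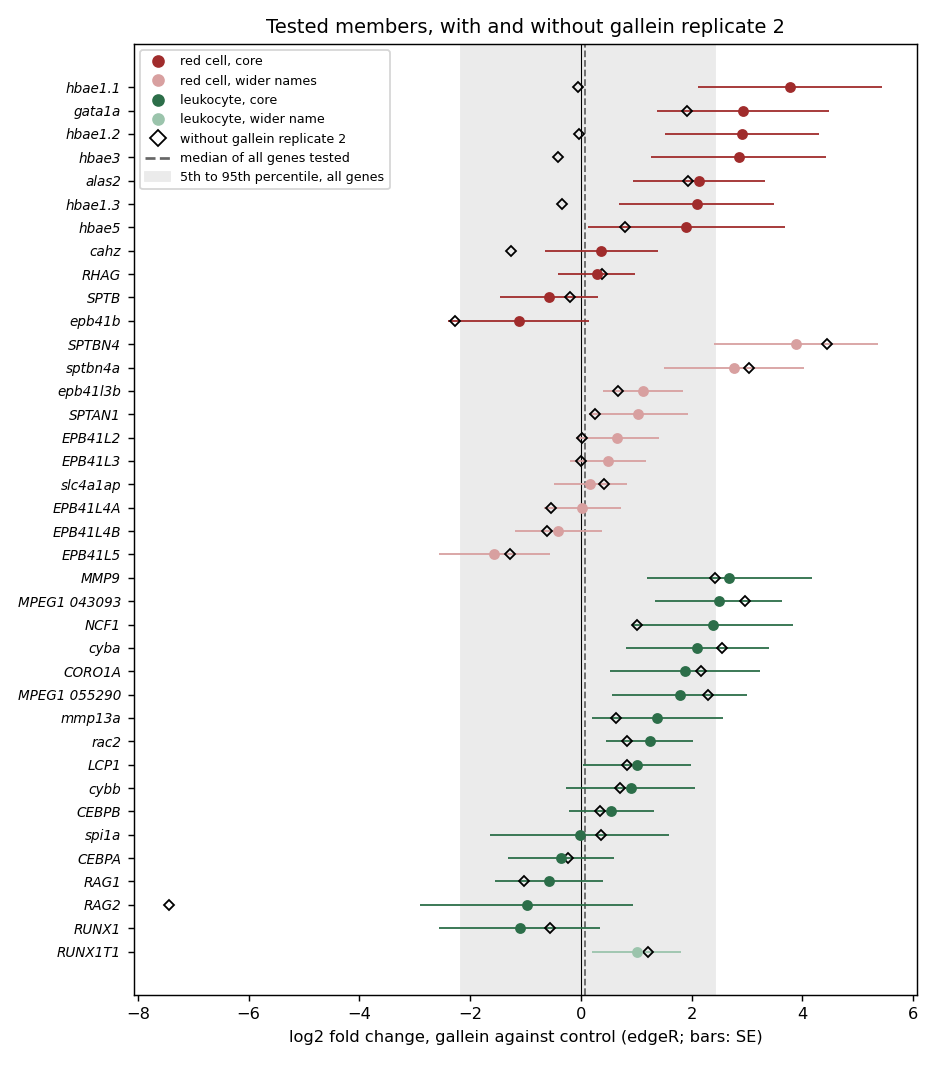
log2 fold change of gallein against control for 38 of the 39 tested members (filled points, edgeR, bars are SE), with the value without gallein replicate 2 as open diamonds; the grey band is the 5th to 95th percentile of all genes tested (-2.17 to 2.42) and the dashed line their median of 0.07. Without that library the 4 hbae1 and hbae3 values fall to between -0.41 and -0.03, while gata1a is at 1.91.

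The 16 core leukocyte genes tested had a median log2 fold change of 1.13, with 11 positive and 5 negative, beside 9631 positive and 8640 negative among all genes tested. Leaving out a library also changes which genes have enough counts: without gallein replicate 2 the median was 0.80 over 21 core genes, and without gallein replicate 1 it was 0.33 over 18. Relative to the median of all genes it was 1.06 with TMM, 0.82 with spike-in totals and 0.90 with library size, and with spike-in totals 4 of the 16 values were above 0. Most single values of the 39 members tested lay inside the range of the other genes, of which 5% were above 2.42 and 5% below -2.17. No member lay below that range, the lowest value being -1.57. Above that range were hbae1.1, gata1a, hbae1.2, hbae3, MMP9, SPTBN4, sptbn4a and MPEG1 (ENSDARG00000043093), with edgeR adjusted p-values from 0.756 to 0.784. They were a larger share of the members than 5%, but several rested on 1 library. Without gallein replicate 2 the values of hbae1.1, hbae1.2 and hbae3 fell to between -0.41 and -0.03.

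The other lists of blood genes held 0 called genes as well. Of 11 haem synthesis and transport genes tested besides alas2, 6 were positive and 5 negative, with a median log2 fold change of 0.03. CPOX, a late enzyme of the pathway, lay higher in all gallein samples, at 16.4, 5.49 and 8.79 CPM against 1.69, 0.976 and 2.47 CPM (log2 fold change 2.58 ± 0.84 SE, edgeR adjusted p = 0.756). With spike-in totals as size factors the log2 fold change of CPOX was 0.99. SLC25A38 (ENSDARG00000059805), a mitochondrial glycine carrier for haem synthesis, lay lower in all gallein samples, at 0.145 to 0.733 CPM against 1.16 to 2.64 CPM. The other gene named SLC25A38 (ENSDARG00000074533) was more abundant, and its groups overlapped. It was at 17.4 to 19.4 CPM in controls and 5.35 to 17.7 CPM in gallein (log2 fold change -0.57). Of all genes tested, 3.81% lay above all controls in every gallein sample and 5.22% lay below them. UROD, another enzyme of the pathway, was at 11 CPM in gallein replicate 3 and at 0.529 to 3.68 CPM elsewhere. ALAS1, the housekeeping form of alas2, was at 90.8 CPM in gallein replicate 2 and at 15.7 to 44.4 CPM elsewhere.

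For iron, 2 of 6 genes tested were positive and the median was -0.30, and single libraries again set the values. fth1a, a ferritin, was at 15105 CPM in gallein replicate 1 and at 122 to 962 CPM in the others. slc11a2, an iron importer, was at 220 CPM in control replicate 1 and at 2.77 to 14.5 CPM in the others. tfa, the iron carrier transferrin of plasma, was at 817, 134 and 186 CPM in controls and 145, 1.16 and 61.1 CPM in gallein, lowest in gallein replicate 2.

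Blood transcription factors had a median of 0.10 over 20 genes, 11 positive and 9 negative. LDB1, a partner of Gata1 complexes that is used in many tissues, was at 1160 CPM in control replicate 3 and at 109 to 356 CPM elsewhere. MYB, needed for blood stem cells, was at 8.62 to 15.5 CPM in controls and at 55.0, 39.2 and 10.2 CPM in gallein, high in the samples that were high in alas2. GATA2 was at 145 CPM in gallein replicate 1 and at 14.9 to 34.8 CPM elsewhere. Thrombocyte genes had 5 positive and 5 negative values and a median of 0.10. F2R (ENSDARG00000060012), a thrombin receptor, was at 18.6 to 32.3 CPM in controls and at 359, 3.13 and 73.8 CPM in gallein. Other tested genes named F2R (ENSDARG00000059507 and ENSDARG00000086236) had log2 fold changes of 0.67 and -0.68. The markers itga2b and mpl summed to 0.0814 to 4.11 CPM over all libraries. Several genes named F2R or FN1 entered the median, whereas mpl and gp9 had too few counts for the test.

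Endothelial genes, which line the vessels that carry blood, were 7 positive and 5 negative, with a median of 0.12. she was at 328, 39.2 and 195 CPM in gallein, with 52.1 to 146 CPM in controls. robo4, a guidance receptor of vessels, was at 15.1 to 25.6 CPM in controls and 7.95, 3.71 and 22.4 CPM in gallein. Of the listed markers, cdh5 was at 25.5, 86.2 and 131.8 CPM in controls and 26.1, 7.13 and 177.5 CPM in gallein, and TIE1 was at 65.8 to 80.9 CPM in controls and 59.6, 12.1 and 132.3 CPM in gallein. These 4 genes were lowest in gallein replicate 2, as were KDR, ecscr and stab2, though their highest libraries differed. That library was not the lowest for tek, flt1, SOX7, sox18 or stab1. The most abundant gene of the list, stab1, was at 137 CPM there and 120 to 313 CPM elsewhere. The share of all genes that were lowest in gallein replicate 2 is not given here.

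The further neutrophil and macrophage genes had a median of 0.63 over 29 tested, 24 positive and 5 negative. That balance depended on the scaling. With spike-in totals as size factors most of the 29 values were below 0, where the median of all genes tested was -1.67. PIK3CD, a lipid kinase of leukocytes, was above the controls in all gallein samples, at 3.28 to 6.28 CPM against 1.22 to 1.39 CPM (log2 fold change 1.87 ± 0.86 SE, edgeR adjusted p = 0.767). With spike-in totals as size factors the log2 fold change of PIK3CD was 0.15. MFAP4 (ENSDARG00000088745), a macrophage gene in zebrafish larvae, was at 0, 0.479 and 0.0231 CPM in controls and 2.89, 0.819 and 0.543 CPM in gallein. Its log2 fold change was 3.03, or 0.34 with spike-in totals. The other 5 genes named MFAP4 had too few counts for the test, and the most counted of them (ENSDARG00000038681) had 6, 46 and 1 counts in controls and 1, 4 and 4 in gallein. Of the 29 genes tested in this list, 3 lay above and 1 below all controls in gallein. Over all genes tested, 3.81% lay above and 5.22% below. The gene below was TIMP2 (ENSDARG00000061226), a protease inhibitor, at 21.5 to 43.3 CPM in controls and 15.1 to 21.5 CPM in gallein, where the groups nearly met, and it was chosen after its values were seen. The other gene named TIMP2 (ENSDARG00000075261) was more abundant, at 44.1 to 179 CPM in controls and 81.4 to 227 CPM in gallein. Its groups overlapped, and its log2 fold change was 0.63. P2RY12, a microglia marker, was at 0 in 5 of 6 libraries, while apoeb, which microglia share with other tissues of the larva, was at 94.9 to 479 CPM in controls and 1187, 473 and 128 CPM in gallein.

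Inflammation and innate signal genes had a median of 0.67 over 24 genes, 16 positive and 8 negative. Here too most of the 24 values were below 0 with spike-in totals as size factors. The smallest p belonged to PTGS2 (ENSDARG00000004539), a prostaglandin synthase, at 15.9, 9.47 and 820 CPM in controls and 6.92 to 14.7 CPM in gallein. Its log2 fold change of -4.85 rested on control replicate 3, without which it was -0.38. The other gene named PTGS2 (ENSDARG00000010276) was at 1.24 to 3.49 CPM in controls and 21.0, 4.43 and 2.99 CPM in gallein. Its log2 fold change was 1.89, or 0.54 without gallein replicate 1 and -0.35 with spike-in totals. STAT3, a factor that cytokine receptors switch on, was at 11.5 to 29.9 CPM in controls and 163, 93.6 and 17.7 CPM in gallein (log2 fold change 2.31 ± 0.92 SE, edgeR adjusted p = 0.756). With spike-in totals as size factors the log2 fold change of STAT3 was 0.23. SOCS3 (ENSDARG00000025428), a brake on cytokine signals, was at 137 to 219 CPM in controls and at 300, 594 and 179 CPM in gallein.

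Lymphocyte genes had a median of -0.12 over 6 tested, 3 positive and 3 negative. TOX, which developing T cells and neurons use, was at 42.1 to 76.9 CPM in controls and at 83.2, 414 and 83.0 CPM in gallein. IKZF1, a factor of lymphoid cells, was at 0 to 1.16 CPM in every library.

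Markers of other tissues moved with some of these genes. The 5 skin markers summed to 3635, 2727 and 989 CPM in controls and to 4947, 3118 and 1438 CPM in gallein, none of them at 0 in any library. They were highest in gallein replicate 1 and lowest in control replicate 3, and within either group replicate 3 was lowest. Replicate 3 was also lowest within either group for MMP9, rac2, alas2, mmp13a, CEBPA, CEBPB and the haemoglobin sum. The 6 skeletal muscle markers summed to 1703, 1152 and 629 CPM in controls and 1640, 1745 and 793 CPM in gallein. Replicate 3 was thus lowest within either group for muscle as well, so this order was not particular to skin. The 5 lens markers summed to 192 to 349 CPM in controls and 303 to 768 CPM in gallein, with the top in gallein replicate 1. The part of skin, lens or muscle RNA in the levels of MMP9, mmp13a, CEBPB and MPEG1 was not tested.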

How the data were processed

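RNA enriched for poly(A) was sequenced from 3 control and 3 gallein samples, with 2 count files each. The values the authors deposited are raw read counts, 1 per Ensembl gene; per the submitters' processing notes TopHat2 2.0.4, HTSeq and the build Zv9 were used. The sources used here do not give the annotation release, counting mode or strand setting, so reads of overlapping genes on opposite strands cannot be told apart. Rows naming no gene (19.4% to 33.9% of a sample's total) and the 92 spike-in rows were kept out of the library totals. The 2 files of a sample were summed as 1 replicate (chi-square per gene between them 1.34 to 1.67).

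Of 32469 identifiers, 20734 had a symbol in the table used. Some are capital orthologue names: such a symbol also counted for a listed fish name ending in a or b, where the exact name was missing, a rule set after the table was seen. The members and lists were chosen with earlier results of these data known. The labels call the samples biological replicates.

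edgeR 4.0.16 (R 4.3.3; TMM, filterByExpr with its minimum count of 10, robust quasi-likelihood fit on group) was run on all genes, with Benjamini-Hochberg adjustment over 18271 and a threshold of 0.05, two-sided. SE is the size of the log2 fold change over the root of F. Sums, shares and detection were described with no test, and detection used counts thinned at random to 30822664. Values in every sample were given for up to 10 red cell and 14 leukocyte members of highest level, up to 4 of each class with the smallest p, and members whose groups did not overlap; of each other list, for genes among the 3 of smallest p and the 2 of highest level, and for listed cell type markers. The fit was tested on simulated data with known changes, where recovery was required at a set dispersion and not at the dispersion of these data. That check therefore does not show how many real changes the test would find here. Alternatives used DESeq2 1.42.0, limma 3.58.1, other scalings and filters, single files and each replicate left out. Most genes of the other lists enter the text only through counts and medians, and some genes that the naming rule takes are not reported here.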

Additional observations from a re-analysis of the deposited data

How the results depend on the processing

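No member was called under any of the 18 alternatives. Of the 39 members tested, 12 kept the sign of their log2 fold change in every alternative that could fit them. Not all could: requiring at least 10 counts in every sample left 17 of the 22 red cell and 9 of the 17 leukocyte members. DESeq2 called 54 genes of the whole table higher and 39 lower, against 0 with edgeR. Scaling by spike-in totals gave medians of -1.09 (red cell), -0.77 (leukocyte), -0.39 (core red cell) and -0.85 (core leukocyte), and -0.068 for the neutrophil and macrophage sum. Library size alone gave a red cell median of 0.18, and at least 10 counts in every sample gave 0.23 for both red cell medians. The cause was not tested.

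Log2 fold changes turned sign as follows. With spike-in totals: RHAG -1.26, alas2 -0.42, cahz -2.14, hbae1.3 -0.049, hbae5 -0.39, EPB41L2 -1.22, EPB41L3 -1.42, EPB41L4A -1.98, SPTAN1 -0.77, epb41l3b -0.95, slc4a1ap -1.65, CEBPB -1.16, CORO1A -0.024, LCP1 -0.77, cyba -0.38, cybb -1.18, mmp13a -0.35, rac2 -0.92, RUNX1T1 -0.22. With library size alone: RHAG -0.18, cahz -0.55, EPB41L2 -0.011, EPB41L3 -0.17, EPB41L4A -0.67, slc4a1ap -0.38, CEBPB -0.038. EPB41L4A was -0.13 with upper-quartile factors, -0.085 with 10 counts in every sample, -0.15 with voom and -0.0042 in the first file of each sample. spi1a was 0.029 with DESeq2 or its size factors, 0.90 with voom and 0.16 in the first file, and cahz was -0.84 with voom.

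With each replicate left out, the red cell median ran from -0.013 to 1.17 and the core red cell median from -0.047 to 2.63, both lowest without gallein replicate 2. Of single members, 11 turned sign: CEBPA (-1.03 to 0.28), EPB41L4A (-0.53 to 0.28), EPB41L5 (-2.14 to 0.17), RAG2 (-7.43, against 0 counts and set by the prior count, to 0.076), cahz (-1.25 to 0.91), epb41b (-2.27 to 0.43), hbae1.1 (-0.047 to 5.28), hbae1.2 (-0.034 to 4.18), hbae1.3 (-0.34 to 3.33), hbae3 (-0.41 to 4.45) and spi1a (-1.51 to 0.51).

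The labels give same-numbered samples a number in common and name no batch. Their deviations from the group means correlated at 0.07, -0.10 and 0.17, and 3 of 6 samples correlated best with their own number. With 3 samples per group these values cannot decide whether same-numbered samples were handled together. With the replicate block 0 genes were called and 511 had an unadjusted p under 0.05, against 1187 without it. The core red cell median was then 1.15 and the core leukocyte median 1.13, and cahz (-0.56), EPB41L4A (-0.12) and spi1a (0.74) turned sign. MMP9 was 1.58 with the block and alas2 1.15. Many leukocyte genes had only a few counts in a library, so their fold changes carry a wide counting error.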
